A study of Mus musculus with 12 samples.

Results

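The 36 genes described here encode the proteins of the piRNA pathway and of the related microRNA and siRNA pathways in the mouse testis. They were chosen by name and each has 1 row among the 55471 genes of the deposited table, of which 49216 carry counts. By role they comprise 3 PIWI proteins, 10 Tudor-domain proteins, 14 factors of piRNA processing, trimming, loading and germ granules, 3 nuclear and silencing factors, and 6 Argonautes and RNase III enzymes. They lie on 16 chromosomes and none is X-linked.

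Small RNAs silence transcripts by guiding an Argonaute-family protein to a complementary sequence. In male germ cells, PIWI proteins carry piRNAs, which are cut from long single-stranded precursors on the surface of mitochondria, trimmed, methylated at their end and held in cytoplasmic granules built by Tudor-domain and helicase proteins. Early piRNAs repress retrotransposons, and a second, very abundant population appears at the pachytene stage of meiosis and guides PIWI proteins through late meiosis and into spermatids. The AGO proteins instead carry microRNAs and siRNAs, which Drosha and Dicer cut from double-stranded precursors.

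RNA was sequenced from germ cells of C57Bl mice that express tdTomato in the germ line, sorted by flow cytometry into pachytene and diplotene cells (PD) or leptotene and zygotene cells (LZ). PD cells were kept for 48 hours with or without oxamate at 24 mM, which blocks lactate dehydrogenase, and LZ cells for 6 days with 0.3 mM octyl-L2HG, a cell-permeable form of L-2-hydroxyglutarate, or without it. The design text states that oxamate brings the level of 2-hydroxyglutarate (2HG) in PD cells down to that in LZ cells, so each treatment was set against untreated cells of the same stage, and untreated PD cells were set against untreated LZ cells. Each of the 4 groups had 3 libraries, from 3 independent experiments, called A, B and C here. The animals behind them are not named, and stage cannot be told apart from the sort or from the time in culture.

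Libraries held 10532504 to 21275486 counts. Values below are normalized counts, that is, counts scaled to a common library size, and a gene was called where limma's two-sided p, adjusted by Benjamini-Hochberg over all genes tested, was under 0.05. Markers followed the labels: 10 genes of meiotic entry, leptotene and zygotene took 0.0491% of counts in untreated PD cells and 0.672% in untreated LZ cells, and 10 pachytene and diplotene genes took 1.71% in untreated PD cells and 0.135% in untreated LZ cells. Other cell types moved with stage as well. Round spermatid markers took 0.124 to 0.150% of counts in untreated PD cells and 0.00117 to 0.00241% in untreated LZ cells, where Acrv1 and Catsper1 were at 0 in every library. Sertoli markers took 0.000252 to 0.000349% in untreated PD cells, where Wt1, Gata4 and Rhox5 were at 0 in every library, and 0.0347 to 0.0388% in untreated LZ cells. Spermatogonia markers took 0.00106 to 0.00125% in untreated PD cells and 0.0178 to 0.0208% in untreated LZ cells. Peritubular and stromal markers took 0.00139 to 0.00155% in untreated PD cells and 0.0210 to 0.0245% in untreated LZ cells. Leydig and macrophage markers were also lower in untreated PD cells, and endothelial markers were higher there. The part of these cell types in the stage differences below was not tested. In sorted bulk samples fewer cells of a type and less RNA per cell cannot be told apart.

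Untreated PD cells differed from untreated LZ cells in most of these genes, in both directions. Of the 35 genes tested, 18 were higher and 13 lower in PD cells, and 4 were not called. Over all 16881 genes tested, 50.8% were called higher and 38.9% lower, so the share of the pathway genes that changed, 51.4% higher and 37.1% lower, lay near the background. Their median log2 fold change was 0.44, against 0.49 over all genes. By role, 7 of 10 Tudor-domain genes were higher and 1 lower, and 9 of 14 processing and granule factors were higher and 4 lower. Of the 6 Argonaute and RNase III genes 1 was higher and 5 lower, and of the 3 nuclear factors 0 were higher and 2 lower. These groups are small, and differences between them were not tested. The genes together took 0.842 to 0.863% of counts in untreated PD libraries and 0.450 to 0.496% in untreated LZ libraries.

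**Figure D1:**
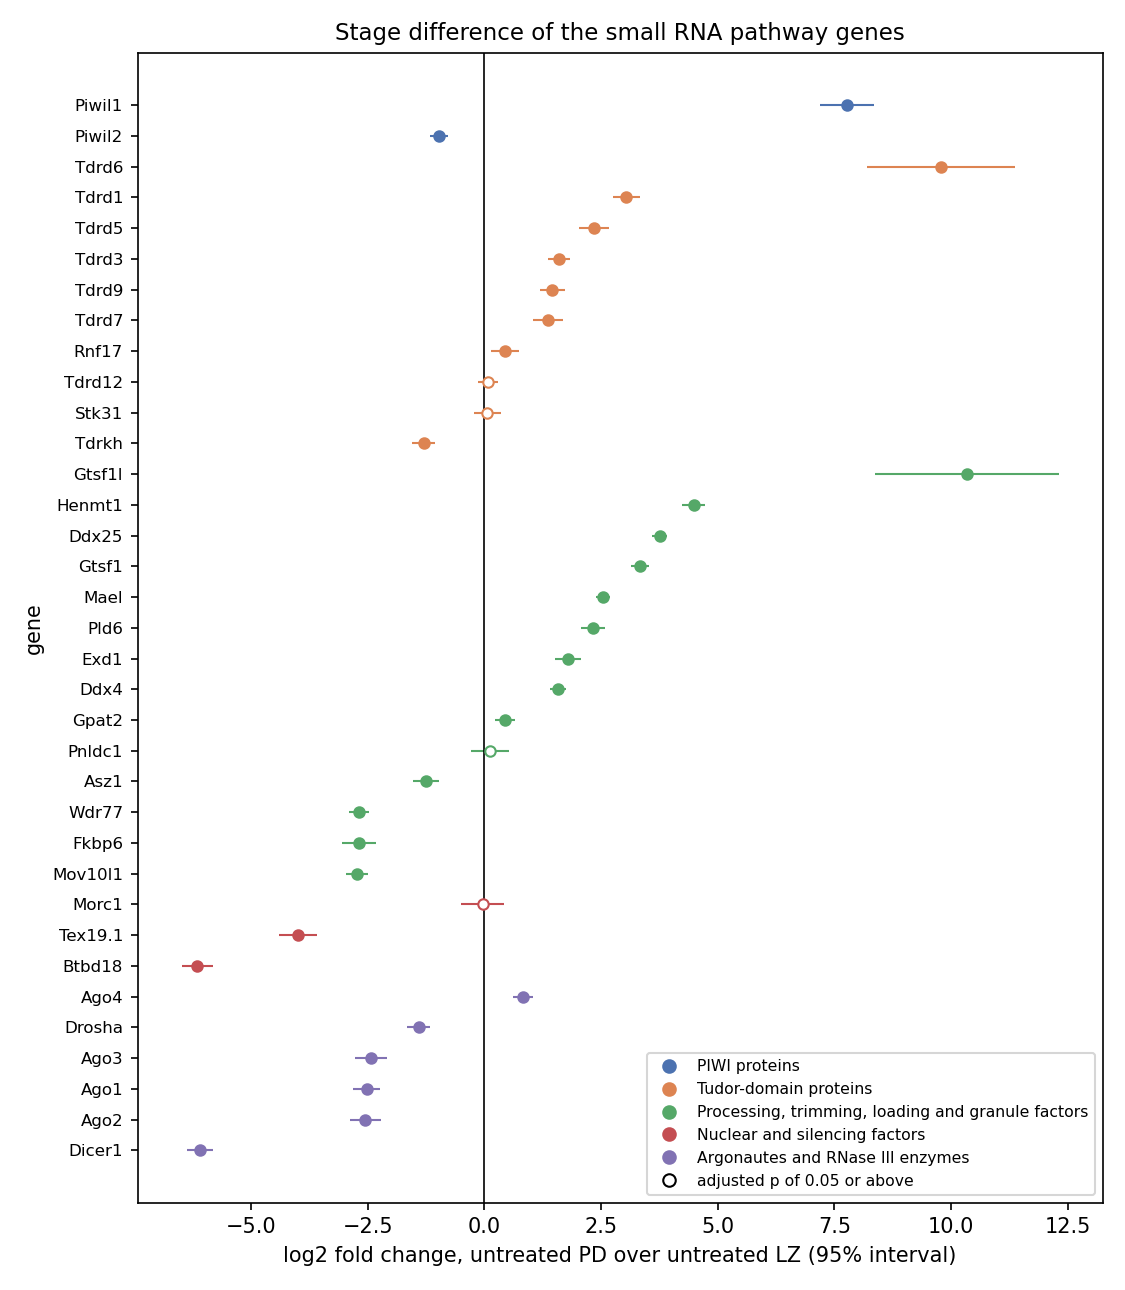
Log2 fold change of untreated PD over untreated LZ cells for the 35 tested genes (horizontal axis), grouped by role and ordered by size within a role; bars are 95% intervals from limma, filled points have an adjusted p under 0.05. Gtsf1l and Tdrd6 lie farthest to the right at 10.34 and 9.78, and Btbd18 and Dicer1 farthest to the left at -6.15 and -6.09.

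The PIWI genes exchanged places between the stages. Piwil1 (ENSMUSG00000029423, chr5:128702524-128755474, GRCm38) encodes MIWI, the PIWI protein of pachytene spermatocytes and round spermatids. It had 13958, 15032 and 15751 normalized counts in untreated PD cells, against 96.5, 48.1 and 65.4 in untreated LZ cells. The groups stood far apart, with every PD library above every LZ library, and the log2 fold change was 7.77 with an SE of 0.26 (limma, adjusted p = 2.69e-11). Piwil2 (chr14:70372477-70429383) encodes MILI, which is present from fetal germ cells onward. Its values were 3388, 3512 and 3532 in untreated PD cells and 7905, 6311 and 6407 in untreated LZ cells, lower in every PD library (log2 fold change -0.98, SE 0.09, adjusted p = 7.95e-08). Piwil4 (chr9:14696230-14740733) encodes the nuclear protein MIWI2 of fetal germ cells. It had 1 count over the 3 untreated PD libraries and 4 over the untreated LZ libraries, too few to enter the fit, and the ratio of 0.247 had a 95% counting interval of 0.00501 to 2.49.

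Values per kilobase of exon, over all annotated transcripts, adjust for gene length but depend on the annotation. Per kilobase, Piwil1 made up 83.9 ± 0.5% (SD, n = 3) of the PIWI normalized counts in untreated PD cells. In untreated LZ cells it made up 1.20 ± 0.27%. Piwil2 made up the remaining 16.1 ± 0.5% in untreated PD cells and 98.8 ± 0.3% in untreated LZ cells. With 3 libraries against 3, an exact permutation test of such a share cannot go below p = 0.1, so the shares are given as values.

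**Figure D2:**
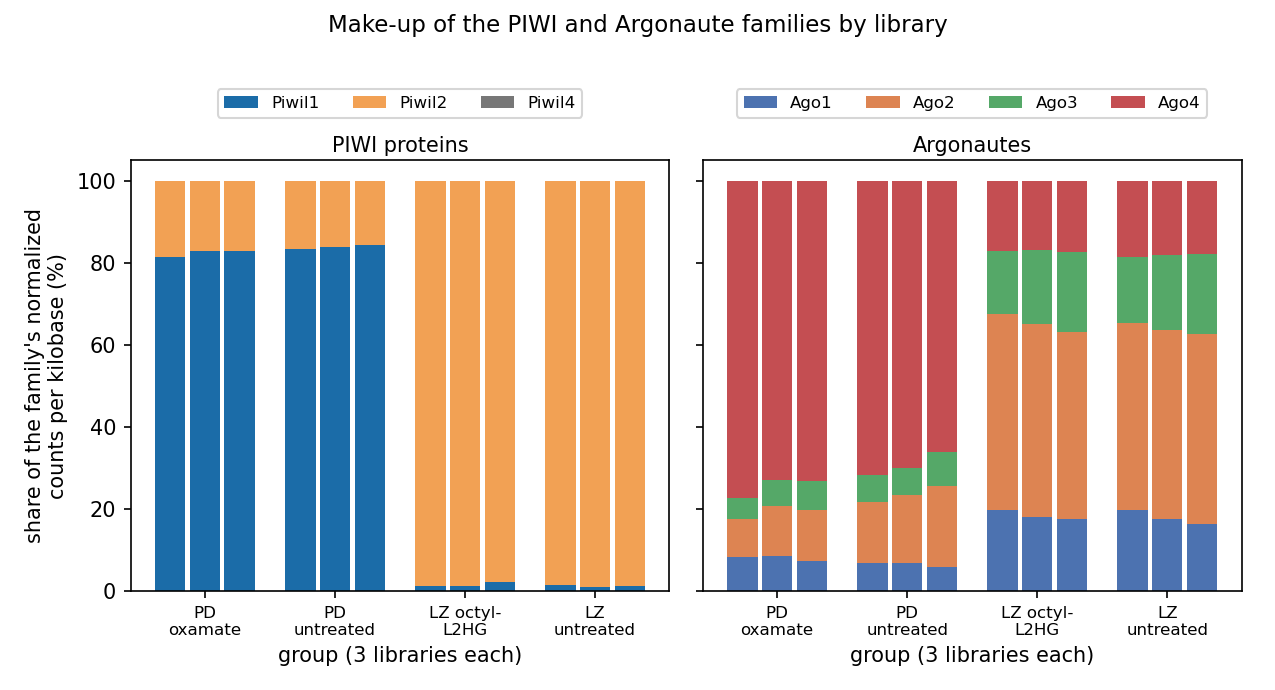
Share of each gene in the summed normalized counts per kilobase of its family (vertical axis, percent), for the PIWI genes (left) and the Argonaute genes (right), in each of the 12 libraries; 3 bars per group are libraries A, B and C, and Piwil4 is too low to be seen. Piwil1 averages 83.9% in untreated PD cells and 1.20% in untreated LZ cells, and Ago4 averages 69.2% in untreated PD cells and 18.2% in untreated LZ cells.

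Among the Tudor-domain genes, several of whose products bind methylated arginines of PIWI proteins, Tdrd6 rose most. Tdrd6 (chr17:43615335-43630299) builds the chromatoid body, the large granule of late spermatocytes and spermatids. It had 31893, 33523 and 32930 normalized counts in untreated PD cells, against 64.3, 25.8 and 28.7 in untreated LZ cells. All PD libraries lay far above all LZ libraries, and the log2 fold change was 9.78 (SE 0.70, adjusted p = 3.97e-07). It took 21.5% of all counts of the 36 genes in untreated PD cells, the largest share of any of them there.

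The next Tudor genes rose by less. Tdrd1, a partner of MILI in the cement between mitochondria, rose by 3.04 on the log2 scale, with a mean normalized count of 5908 ± 594 in untreated PD cells and 728 ± 171 in untreated LZ cells (SD, n = 3 each). Tdrd5, which binds piRNA precursors, rose by 2.34, Tdrd3 by 1.61, the helicase gene Tdrd9 by 1.45 and the granule gene Tdrd7 by 1.37. Rnf17 rose by 0.44 (adjusted p = 0.00816) with the scaling used here, but was at -0.04 when libraries were scaled by their total counts. Its adjusted p was 0.0581 in a fit of only the compared libraries, 0.0743 without library B of untreated PD cells and 0.155 without library C.

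A single Tudor gene fell. Tdrkh, which anchors PIWI proteins on mitochondria for trimming, had 1138, 1194 and 1197 normalized counts in untreated PD cells and 3501, 2408 and 2903 in untreated LZ cells (log2 fold change -1.30, SE 0.12, adjusted p = 6.72e-08). Its exons overlap those of Oaz3, which averaged 3602 normalized counts in untreated PD cells and 39.1 in untreated LZ cells. Whether counting used strand is not given in the sources used here, so reads of the overlap cannot be assigned with certainty. Tdrd5 likewise overlaps 4930518J20Rik, which averaged 2096 in untreated PD cells and 3.46 in untreated LZ cells.

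Tdrd12 and Stk31 were not called. Tdrd12, a partner of PIWI proteins in piRNA biogenesis, had 1446, 1561 and 1769 normalized counts in untreated PD cells and 1586, 1321 and 1627 in untreated LZ cells. The log2 fold change was 0.08 (SE 0.10, adjusted p = 0.482), with a 95% interval of -0.14 to 0.29. Stk31, a Tudor protein with a kinase-like domain, had 1613, 1661 and 1916 in untreated PD cells and 1814, 1371 and 1809 in untreated LZ cells (0.06, SE 0.13, adjusted p = 0.655). The groups overlapped for both genes, and total-count scaling, which moves the median of all genes to -0.08, called both lower in PD cells, Tdrd12 at -0.40 (adjusted p = 0.000674) and Stk31 at -0.42 (adjusted p = 0.00579).

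Of the 14 factors that process, trim and load piRNAs or build germ granules, 9 were higher, 4 lower and 1 not called in untreated PD cells. Henmt1 (chr3:108940059-108960774), the methyltransferase that protects piRNA ends, had 1225, 1196 and 1150 normalized counts in untreated PD cells, against 52.2, 52.8 and 51.6 in untreated LZ cells. The LZ libraries, with raw counts of only 60, 45 and 45, lay far below the PD libraries (log2 fold change 4.49, SE 0.11, adjusted p = 1.09e-13). Exons of Henmt1 overlap those of Gm9857 on the other strand, which averaged 47.8 in untreated PD cells and 5.22 in untreated LZ cells. Gtsf1l (chr2:163087034-163087855), a paralog of the PIWI cofactor Gtsf1, had 2462, 1906 and 2058 in untreated PD cells, against 3.48, 0 and 0 in untreated LZ cells. Its 6209 counts in untreated PD cells and 4 in untreated LZ cells gave a ratio of 1532 after scaling, with a 95% counting interval of 598 to 5620. The fitted log2 fold change of 10.34 (SE 0.88, adjusted p = 7.64e-07) depends on the pseudocount at such low counts: it was 8.48 with a pseudocount of 5 and 11.04 without library A of untreated LZ cells. Gtsf1 itself, which stimulates cleavage by PIWI proteins, rose by 3.33 with 3337 ± 253 in untreated PD cells and 331 ± 22 in untreated LZ cells.

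Granule helicases rose as well. Ddx25 (chr9:35536647-35558528), an RNA helicase of the chromatoid body, had 12773, 12633 and 12402 normalized counts in untreated PD cells and 911, 972 and 920 in untreated LZ cells. The groups were widely separated with little spread inside either (log2 fold change 3.75, SE 0.08, adjusted p = 1.72e-14). Ddx4, the germ cell helicase VASA, rose by 1.58, and Mael, a granule protein of piRNA biogenesis, by 2.54. Pld6, the mitochondrial nuclease that cuts piRNA precursors, rose by 2.33, and Exd1, an RNA-binding partner of Tdrd12, by 1.79. Gpat2, a mitochondrial acyltransferase needed for early piRNAs, was 0.45 higher with the scaling used here and -0.03 with total-count scaling.

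The 4 genes of this group that fell were Mov10l1, Fkbp6, Wdr77 and Asz1. Mov10l1 (chr15:88982909-89055152), the helicase that feeds precursors into processing, had 1536, 1524 and 1876 normalized counts in untreated PD cells and 12717, 9813 and 10206 in untreated LZ cells. It was lower in every PD library (log2 fold change -2.73, SE 0.11, adjusted p = 7.23e-12). Fkbp6 (chr5:135291704-135350044), a cochaperone of piRNA loading, had 331, 321 and 259 in untreated PD cells and 2657, 1653 and 1709 in untreated LZ cells (log2 fold change -2.69, SE 0.17, adjusted p = 1.08e-09). Library A of untreated LZ cells was the highest of its group for both genes. Wdr77, the cofactor of the arginine methyltransferase Prmt5, fell by 2.69, and Asz1, a mitochondrial scaffold, by 1.25. Exons of Wdr77 overlap those of Atp5f1 and Gm42890. Pnldc1, the nuclease that trims piRNA ends, was not called: it had 87.4, 86.9 and 64.4 in untreated PD cells and 62.6, 84.5 and 72.3 in untreated LZ cells (0.12, SE 0.19, adjusted p = 0.560), with overlapping groups.

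**Figure D3:**
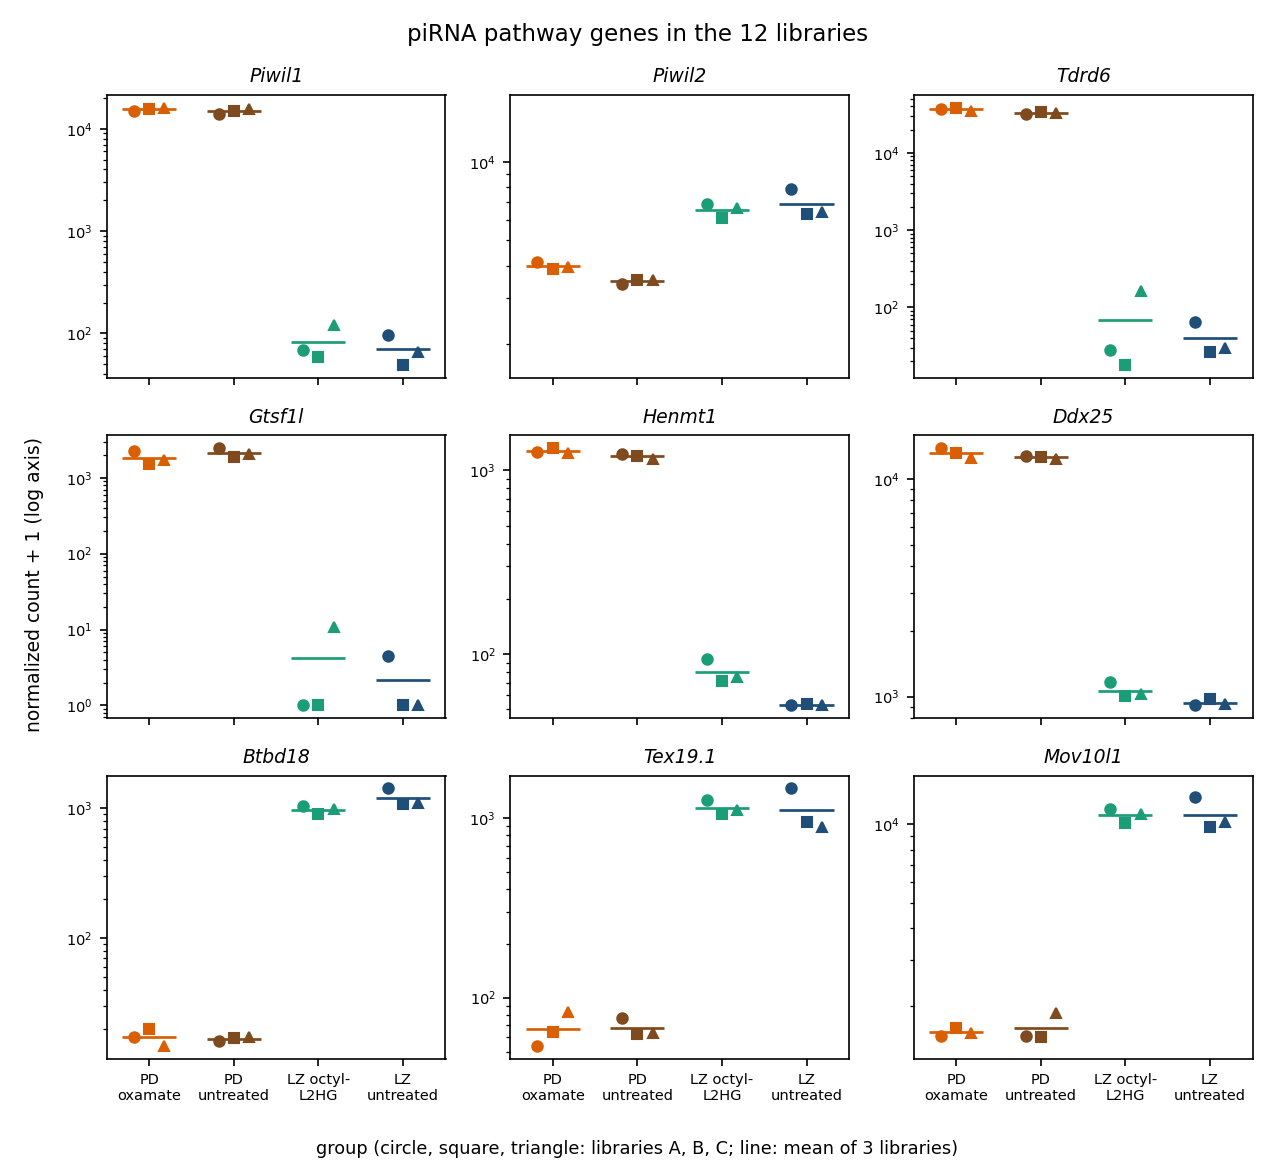
Normalized count + 1 on a log axis (vertical) for 9 piRNA pathway genes in PD oxamate, PD untreated, LZ octyl-L2HG and LZ untreated cells (horizontal); symbols are libraries A, B and C and lines are group means. Piwil1, Tdrd6, Gtsf1l, Henmt1 and Ddx25 are high in both PD groups, the other genes are high in both LZ groups, and in Tdrd6 and Gtsf1l library C of LZ octyl-L2HG stands above the other LZ libraries.

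Of the 3 nuclear factors, 2 fell and 1 was not called. Btbd18 (chr2:84659079-84668780) encodes a nuclear protein that promotes transcription of pachytene piRNA precursors. It had 15.1, 16.0 and 16.1 normalized counts in untreated PD cells, against 1427, 1076 and 1093 in untreated LZ cells. That was the largest fall of the 35 genes tested, with no overlap (log2 fold change -6.15, SE 0.16, adjusted p = 1.09e-13). Tex19.1 (chr11:121146143-121148319), a mammal-specific factor that restrains retrotransposons, had 75.7, 61.7 and 62.7 in untreated PD cells and 1462, 950 and 891 in untreated LZ cells (log2 fold change -3.99, SE 0.19, adjusted p = 5.80e-11). Morc1, needed for DNA methylation of transposons in fetal germ cells, was low in both groups and not called. It had 58.2, 56.0 and 50.9 in untreated PD cells and 63.5, 55.2 and 51.6 in untreated LZ cells (-0.04, SE 0.22, adjusted p = 0.864), but was called lower with total-count scaling (-0.51, adjusted p = 0.0359).

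Of the 4 Argonaute genes, Dicer1 and Drosha, all but Ago4 fell. Dicer1 (chr12:104687742-104751952) had 31.4, 36.6 and 36.5 normalized counts in untreated PD cells, against 2663, 2280 and 2370 in untreated LZ cells. Per kilobase it lay above only 1.8% of measured genes in untreated PD cells and above 69.3% in untreated LZ cells. The log2 fold change was -6.09, a 68.1-fold lower level (SE 0.13, adjusted p = 2.13e-14). Drosha, the nuclear enzyme that cuts primary microRNAs, fell by 1.41, with 501 ± 33 in untreated PD cells and 1338 ± 203 in untreated LZ cells.

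Ago1, Ago3 and Ago4 are neighbours on chromosome 4, all on the minus strand. Ago3 (chr4:126331704-126429556) and Ago1 (chr4:126435012-126468583) are 5455 bases apart, and Ago1 and Ago4 (chr4:126489541-126533472) are 20957 bases apart. Across the stages Ago1 and Ago3 fell, while Ago4 rose. Ago1 had 129, 133 and 119 normalized counts in untreated PD cells and 873, 640 and 706 in untreated LZ cells (log2 fold change -2.52, SE 0.13, adjusted p = 1.57e-10). Ago3 had 250, 258 and 333 in untreated PD cells and 1437, 1365 and 1702 in untreated LZ cells (-2.42, SE 0.16, adjusted p = 1.96e-09). Ago4 had 1144, 1139 and 1122 in untreated PD cells and 706, 561 and 656 in untreated LZ cells (0.83, SE 0.10, adjusted p = 1.11e-06). For all 3 genes the groups did not overlap, and Ago4 alone was higher in PD cells.

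Ago2 (chr15:73095844-73184935), the Argonaute that can cut its target, fell too. It had 478, 543 and 671 normalized counts in untreated PD cells and 3502, 2917 and 3432 in untreated LZ cells (log2 fold change -2.55, SE 0.16, adjusted p = 7.54e-10). Its exons overlap those of Chrac1 on the other strand, which averaged 4404 in untreated PD cells and 470 in untreated LZ cells. Per kilobase, Ago4 made up 69.2 ± 2.8% of the Argonaute counts in untreated PD cells and 18.2 ± 0.4% in untreated LZ cells. Ago2 made up 17.0 ± 2.4% in untreated PD cells and 46.1 ± 0.3% in untreated LZ cells.

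**Figure D4:**
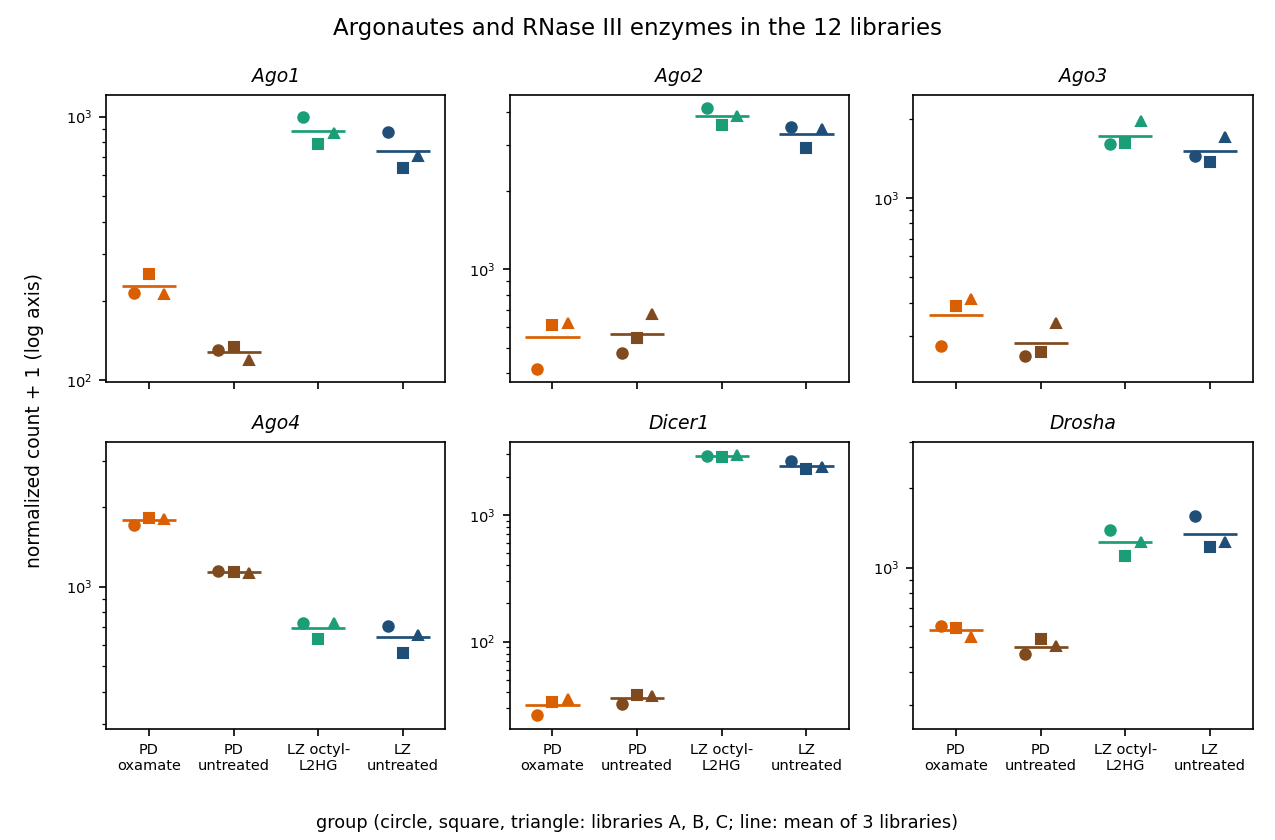
Normalized count + 1 on a log axis (vertical; each panel has its own range) for the 4 Argonaute genes, Dicer1 and Drosha in the 4 groups (horizontal); symbols are libraries A, B and C and lines are group means. Ago1 and Ago4 lie higher in all 3 oxamate libraries than in all 3 untreated PD libraries, and Dicer1 lies between 25.1 and 36.6 in the PD libraries and between 2280 and 2965 in the LZ libraries.

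Ranked per kilobase, Mael was the highest of the 36 genes in both stages, at 17800 normalized counts per kilobase in untreated PD cells, above 99.9% of 16434 measured genes, and at 3063 in untreated LZ cells, above 99.3% of 13764 genes. In untreated PD cells it was followed by Tdrd6 at 4642, Ddx4 at 4394, Piwil1 at 3422 and Gtsf1l at 2606 per kilobase. In untreated LZ cells the next genes were Mov10l1 at 2609, Ddx4 at 1471, Piwil2 at 1300 and Fkbp6 at 1145. Mael and Ddx4 were thus among the top 3 of both lists, while Tdrd6 at 5.61 and Gtsf1l at 1.41 per kilobase were near the bottom in untreated LZ cells. Dicer1 at 2.08 and Btbd18 at 4.48 per kilobase were the lowest in untreated PD cells apart from Piwil4.

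Promoter windows, 250 bases before to 50 bases after each transcription start from RefSeq (GRCm38.p6), were matched for 30 of the 36 genes. Tdrd6, Piwil2, Rnf17, Ago2, Pnldc1 and Morc1 had no window and were not searched. The windows were searched on both strands for the MYB core, CAACNG or TAACNG, the letters recognised by A-MYB (Mybl1), the transcription factor of pachytene piRNA genes, and for the E-box CACGTG, bound by basic helix-loop-helix factors. The patterns cannot match at the same position. A MYB core was found in 14 of the 30 genes (46.7%), against 53.1% of all 27025 genes with a window and 52.5% of the 11961 among them that were tested between stages. It was present in 6 of 16 genes that were higher in PD cells (37.5%) and in 6 of 11 that were lower (54.5%). The E-box was found in 11 of the 30 genes (36.7%), against 8.09% of all genes with a window and 11% of those tested between stages. It occurred in 7 of the 16 genes that were higher (43.8%) and in 3 of the 11 that were lower (27.3%). Among the genes searched, the windows shown are those of the largest rises with a MYB core and of the largest fall, with MYB cores and E-boxes in capitals.
Gtsf1l, chr2:163089552-163089851, minus strand: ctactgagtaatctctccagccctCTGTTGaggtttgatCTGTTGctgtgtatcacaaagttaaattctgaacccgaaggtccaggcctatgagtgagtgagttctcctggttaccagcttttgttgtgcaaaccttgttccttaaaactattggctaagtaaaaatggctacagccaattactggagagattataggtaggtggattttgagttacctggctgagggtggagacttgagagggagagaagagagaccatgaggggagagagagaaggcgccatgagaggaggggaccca
Piwil1, chr5:128735996-128736295, plus strand: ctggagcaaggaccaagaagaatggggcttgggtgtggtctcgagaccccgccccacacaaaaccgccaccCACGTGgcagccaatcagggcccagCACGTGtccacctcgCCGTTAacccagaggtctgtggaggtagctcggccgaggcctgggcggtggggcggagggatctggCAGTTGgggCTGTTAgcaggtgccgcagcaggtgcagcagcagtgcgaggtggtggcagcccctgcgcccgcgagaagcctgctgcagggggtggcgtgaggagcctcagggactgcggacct
Btbd18, chr2:84658829-84659128, plus strand: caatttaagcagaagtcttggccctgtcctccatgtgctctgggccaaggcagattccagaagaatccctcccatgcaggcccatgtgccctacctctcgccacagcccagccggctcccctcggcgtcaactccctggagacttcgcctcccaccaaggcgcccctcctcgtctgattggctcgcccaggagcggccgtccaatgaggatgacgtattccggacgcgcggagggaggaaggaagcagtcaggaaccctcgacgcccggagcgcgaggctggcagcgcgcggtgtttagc
The Gtsf1l window held 2 MYB cores and no E-box, the Piwil1 window 3 MYB cores and 2 E-boxes, and the Btbd18 window neither. The Gtsf1l and Piwil1 windows lie at RefSeq starts that differ from the gene ends in the deposited table. Mybl1 itself, named after its values were seen, averaged 3584 ± 742 normalized counts in untreated PD cells and 4511 ± 673 in untreated LZ cells and was not called (log2 fold change -0.34, SE 0.19, adjusted p = 0.105).

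Oxamate raised Ago1 and Ago4 in PD cells. Of the 35 genes tested, 2 were called higher (5.71%) and 0 lower, against 6.13% higher and 1.65% lower of all 15233 genes tested, so the number of calls lay near the background. At an unadjusted p under 0.05, limma gave 6 of the 35 genes, all higher, against 3211 of all 15233 genes in either direction. The authors' deposited table lists 4 of these genes as higher and 0 as lower at an adjusted p under 0.05. Over all 27034 genes with an adjusted p it lists 1139 as higher and 537 as lower. Groups did not overlap for 13 genes that were higher with oxamate and for 0 that were lower, against 20.7% and 13.7% of all genes.

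Ago1 had 214, 252 and 212 normalized counts in oxamate-treated PD cells, against 129, 133 and 119 in untreated PD cells. Each treated library was above every untreated one, by a log2 fold change of 0.82 or 1.77-fold (SE 0.13, adjusted p = 0.00263). Ago4 had 1717, 1825 and 1810 in oxamate-treated cells and 1144, 1139 and 1122 in untreated cells. The spread within both groups was small beside the difference, and the log2 fold change was 0.65 or 1.57-fold (SE 0.10, adjusted p = 0.00173). Pachytene and diplotene markers took 1.55 to 1.69% of counts in oxamate-treated cells and 1.69 to 1.72% in untreated PD cells, and round spermatid markers took 0.0909 to 0.122% in oxamate-treated cells and 0.124 to 0.150% in untreated PD cells. The part of these shares in the Ago1 and Ago4 changes was not tested.

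The other 2 Argonautes were not called. Ago3, which lies beside Ago1, had 273, 387 and 412 normalized counts with oxamate and 250, 258 and 333 without it. Libraries of the groups overlapped, and the log2 fold change was 0.34 (SE 0.16, adjusted p = 0.251, 95% interval -0.02 to 0.69). Ago2 had 415, 610 and 621 with oxamate and 478, 543 and 671 without it (-0.05, SE 0.16, adjusted p = 0.934). Per kilobase, Ago4 made up 74.5 ± 2.5% of the Argonaute counts with oxamate and 69.2 ± 2.8% without it, and Ago2 11.2 ± 1.7% with oxamate and 17.0 ± 2.4% without it. The library values of the groups did not overlap for either share.

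Tdrkh, Stk31 and Pnldc1 lay near the threshold. Tdrkh had 1439, 1570 and 1585 normalized counts with oxamate and 1138, 1194 and 1197 without it, with no overlap (log2 fold change 0.38, SE 0.12, adjusted p = 0.0672). Stk31 had 1880, 2473 and 2586 with oxamate and 1613, 1661 and 1916 without it, with library A of the treated cells inside the untreated range (0.41, SE 0.13, adjusted p = 0.0826). Pnldc1 had 109, 116 and 134 with oxamate and 87.4, 86.9 and 64.4 without it, with no overlap (0.59, SE 0.19, adjusted p = 0.0741). Libraries of PD cells with the same letter deviated together. With the letter as a replicate block 4 genes were called higher, Tdrkh (adjusted p = 0.0496) and Stk31 (adjusted p = 0.0484) beside Ago1 and Ago4. The block gave PD and LZ libraries of a letter the same effect, so it is not a paired test of PD cells alone. Over all 15233 genes the block called 1230 higher, against 934 without it. Without library C of untreated PD cells 4 genes were called, and without library A of oxamate-treated cells also 4. Over all genes these fits called 846 of 14898 and 832 of 15000 higher, respectively. The 4 genes of the authors' deposited table are Ago1, Ago4, Tdrkh (adjusted p = 0.00618) and Stk31 (adjusted p = 0.00717).

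Neither PIWI gene tested was called with oxamate. Piwil1 had 14987, 15576 and 15985 normalized counts with oxamate and 13958, 15032 and 15751 without it (log2 fold change 0.06, SE 0.26, adjusted p = 0.954, 95% interval -0.52 to 0.63). This SE rests on 1 spread per gene over all 12 libraries, LZ cells included. The SD of Piwil1 was 3.23% of the mean in oxamate-treated and 6.05% in untreated PD cells. In LZ cells it was 40.8% with octyl-L2HG and 35.0% without it. Piwil2 had 4123, 3893 and 3954 with oxamate and 3388, 3512 and 3532 without it. Its groups did not overlap, but the difference of 0.20 was not called (SE 0.09, adjusted p = 0.220). Piwil4 had 4 counts over the 3 treated libraries and 1 over the 3 untreated ones. Fitted changes of the 35 genes ran from -0.32 for Morc1 to 0.82 for Ago1, with a median of 0.10 against 0.03 over all genes.

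**Figure D5:**
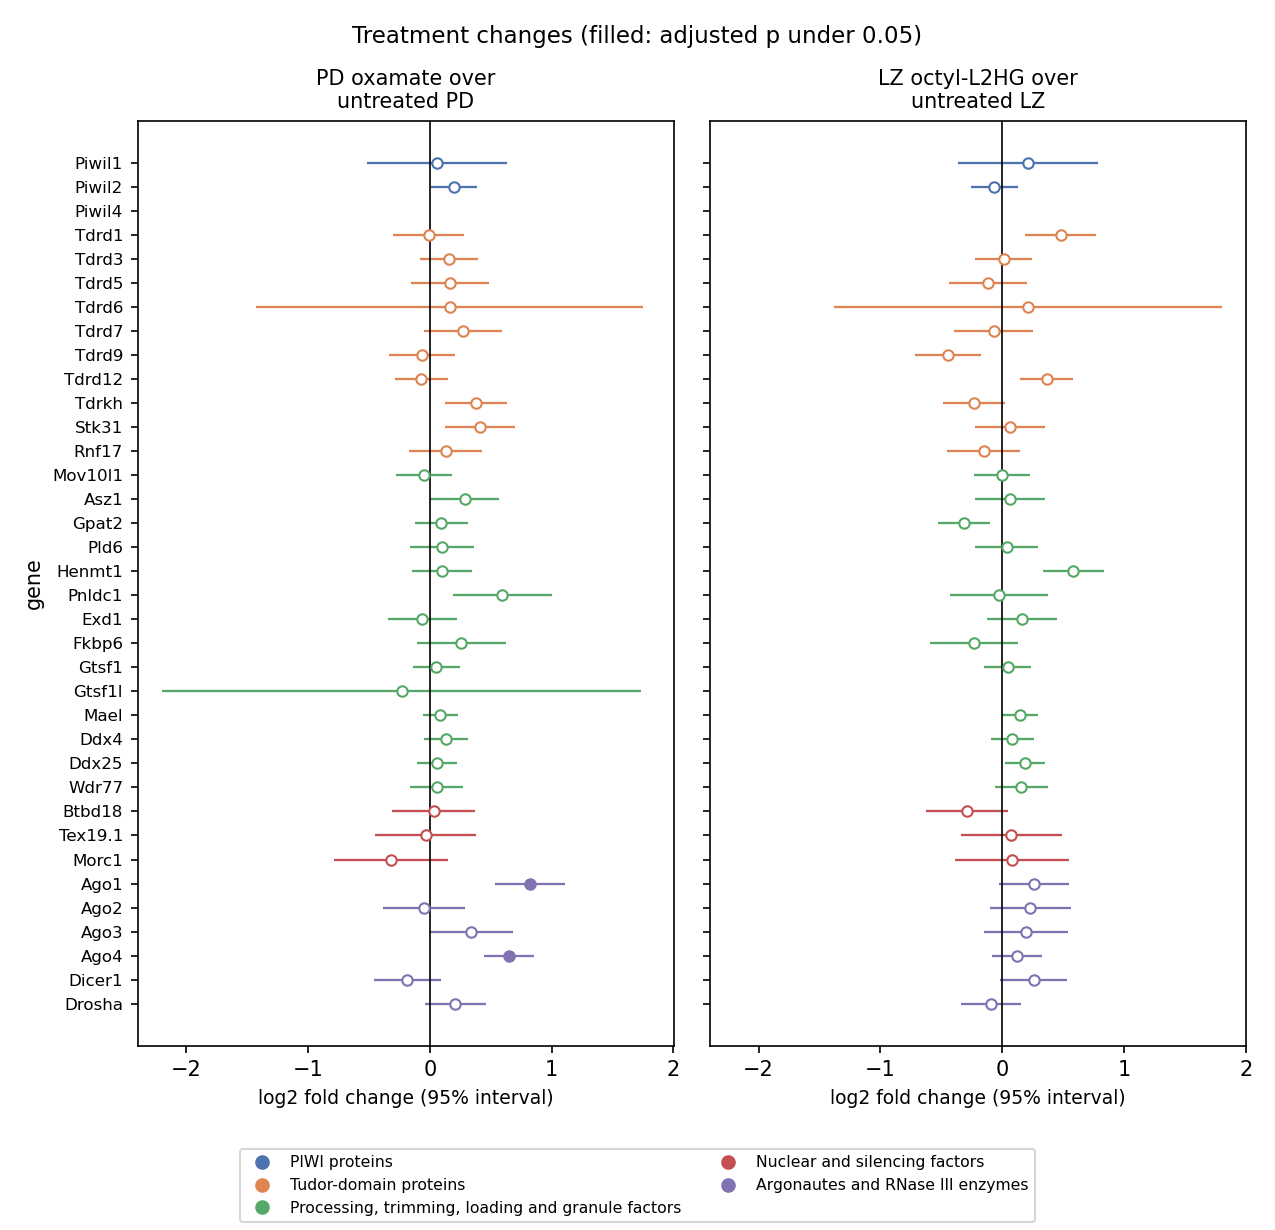
Log2 fold change (horizontal axis) of oxamate-treated over untreated PD cells (left) and of octyl-L2HG-treated over untreated LZ cells (right) for the tested genes; bars are 95% intervals from limma and filled points have an adjusted p under 0.05. Each interval uses 1 spread per gene over all 12 libraries, so the wide left intervals of Piwil1, Tdrd6 and Gtsf1l include their spread in LZ cells. Ago1 at 0.82 and Ago4 at 0.65 are filled on the left, and no point is filled on the right, where Henmt1 is highest at 0.59.

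With octyl-L2HG, 0 of the 34 genes tested in LZ cells were called higher and 0 lower, against 0.276% and 0.0307% of all 13039 genes tested. At an unadjusted p under 0.05, limma gave 7 of the 34 genes, against 1694 of all 13039 genes. The 7 were Henmt1, Tdrd1, Tdrd12, Ddx25 and Mael with higher values and Tdrd9 and Gpat2 with lower ones. Groups did not overlap for 7 genes that were higher and for 3 that were lower, against 15.1% and 4.03% of all genes. The authors' deposited table lists Tdrd12 (adjusted p = 0.0259) and Tdrd1 (adjusted p = 0.0453) as higher and Tdrd9 (adjusted p = 0.0115) as lower. Over all 27034 genes with an adjusted p it lists 78 as higher and 56 as lower.

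Henmt1 came closest to the threshold. It had 93.2, 70.8 and 74.1 normalized counts in octyl-L2HG-treated LZ cells, against 52.2, 52.8 and 51.6 in untreated LZ cells. Every treated library was above the untreated ones, and the log2 fold change was 0.59 (SE 0.11, adjusted p = 0.0524). Raw counts were low, at 121, 67 and 61 with octyl-L2HG and 60, 45 and 45 without it. The overlapping gene Gm9857 averaged 9.45 normalized counts with octyl-L2HG and 5.22 without it. Tdrd1 had 1114, 936 and 955 with octyl-L2HG and 925, 635 and 623 without it (0.48, SE 0.14, adjusted p = 0.170). Library A of untreated LZ cells lay close to the treated range, and without it the change was 0.67 (adjusted p = 0.0124). Tdrd9 had 1110, 1008 and 1293 with octyl-L2HG and 1925, 1314 and 1443 without it (-0.44, SE 0.13, adjusted p = 0.170).

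The PIWI and AGO genes of LZ cells were not called with octyl-L2HG. Piwil1 had 67.8, 58.1 and 120 normalized counts with octyl-L2HG and 96.5, 48.1 and 65.4 without it (log2 fold change 0.21, SE 0.26, adjusted p = 0.807, 95% interval -0.36 to 0.79). Piwil2 had 6904, 6083 and 6631 with it and 7905, 6311 and 6407 without it (-0.07, SE 0.09, adjusted p = 0.825). Piwil4 had 6 counts over the 3 treated libraries and 4 over the 3 untreated ones.

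The 4 Argonautes had higher means with octyl-L2HG, by 0.12 to 0.26 on the log2 scale. Ago1 had 996, 788 and 863 normalized counts with octyl-L2HG and 873, 640 and 706 without it (0.26, SE 0.13, adjusted p = 0.439). Ago2 had 4139, 3560 and 3843 with it and 3502, 2917 and 3432 without it, without overlap (0.23, SE 0.16, adjusted p = 0.573). Libraries of the groups overlapped for Ago1, Ago3 and Ago4. Ago3 had 1596, 1614 and 1958 with octyl-L2HG and 1437, 1365 and 1702 without it (0.20, SE 0.16, adjusted p = 0.655), and Ago4 had 730, 631 and 724 with it and 706, 561 and 656 without it (0.12, SE 0.10, adjusted p = 0.652). Dicer1, at 2907, 2851 and 2965 with octyl-L2HG and 2663, 2280 and 2370 without it, did not overlap either and was not called (0.26, adjusted p = 0.422).

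One treated library stood apart in genes that are nearly silent in LZ cells. Library C of octyl-L2HG-treated cells had 160 normalized counts of Tdrd6, against 27.0 and 16.9 in treated libraries A and B and 64.3, 25.8 and 28.7 in untreated LZ cells. It also held all 8 counts of Gtsf1l in the treated group, where the untreated group had 4, all in library A, and Gtsf1l was not tested with octyl-L2HG. Pachytene and diplotene markers took 0.113% of counts in that library, 0.117% in treated library A and 0.104% in treated library B, and their part in these values was not tested.

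The test of the difference between the octyl-L2HG change and the oxamate change called 0 of 34 genes, against 1.21% of all 11261 genes tested. At an unadjusted p under 0.05, limma gave 9 of the 34, against 1903 of all 11261 genes. Ago4 and Tdrkh came closest, both with a less positive change under octyl-L2HG than under oxamate. For Ago4 the changes were 0.12 with octyl-L2HG and 0.65 with oxamate (difference -0.53, SE 0.14, adjusted p = 0.0693), and with the replicate block Ago4 was called (adjusted p = 0.0446). For Tdrkh they were -0.23 with octyl-L2HG and 0.38 with oxamate (difference -0.61, SE 0.17, adjusted p = 0.0845). Tdrkh was not called with the block. Neither gene was called in the fit used here, and both were called when its scaling was replaced by total-count or median-of-ratios scaling.

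The spread between libraries of a group was of the order of that of other genes or below it. The other genes were not matched for level, so the lower spread is not a trait of these genes. The median coefficient of variation of the genes with a mean of at least 10 was 6.59% in oxamate-treated and 6.88% in untreated PD cells, against 11.3% and 11.2% over all genes. It was 8.93% in octyl-L2HG-treated and 13.7% in untreated LZ cells, against 10.3% and 14.7% over all genes. Mael varied least in untreated PD cells, at 0.907%, and Tdrd6 most in LZ cells, at 118% with octyl-L2HG and 54.2% without it.

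Of 36 further genes of these pathways, chosen by name with earlier results of these data known, 34 had a row of counts. Between stages 31 were tested, of which 11 were higher (35.5%) and 17 lower (54.8%) in untreated PD cells, against 50.8% and 38.9% of all genes. Their median log2 fold change was -0.34, against 0.49 over all genes. The 11 microRNA and siRNA genes among them comprised 4 higher and 7 lower, and the 20 piRNA genes 7 higher and 10 lower. The largest rises were Kif17, a kinesin linked to the chromatoid body, at 5.98, Spocd1, a nuclear partner of MIWI2, at 4.63, Akap1, a mitochondrial anchoring protein, at 4.61, and Dnmt3l, a cofactor of de novo DNA methylation, at 4.35. Kif17 averaged 2383 ± 460 normalized counts in untreated PD cells and 37.5 ± 11.2 in untreated LZ cells. The largest falls were the RNA editing enzyme Adar at -3.45, the Tudor nuclease Snd1 at -3.40, the silencing factor Tex15 at -2.99 and the helicase Ythdc2 at -2.92.

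With oxamate 5 of 31 such genes (16.1%) were called higher and 0 lower, against 6.13% and 1.65% of all genes tested. With octyl-L2HG 0 of 29 were called in either direction, against 0.276% higher and 0.0307% lower of all genes. At an unadjusted p under 0.05, limma gave 5 of the 29, against 1694 of all 13039 genes. Tnrc6a, the GW182 scaffold that binds Argonautes, had 834, 904 and 965 normalized counts in oxamate-treated PD cells, against 465, 496 and 504 in untreated PD cells. All treated libraries lay above the untreated ones (log2 fold change 0.88, SE 0.09, adjusted p = 0.000305). Adar rose by 0.74 with oxamate, the histone demethylase gene Kdm1a by 0.39 and Prmt5, which methylates PIWI proteins, by 0.38. Tnrc6c, a paralog of Tnrc6a named after its values were seen, rose by 0.31. For Tnrc6a the 2 treatment changes also differed (difference -0.65, SE 0.13, adjusted p = 0.0278), and it was the only one of 29 such genes called in that test.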

How the data were processed

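The authors deposited 1 table with raw counts per gene of 12 libraries, their normalized copies (12 columns, not used) and their own log2 fold changes and adjusted p-values. Per the labels' protocols, poly-A RNA was captured and libraries kept strand. Among the tools in the submitters' processing notes are TopHat2 2.1.1, HTSeq 0.6.0 and build GRCm38; the strand setting is not given in the sources used here. Column names give each library's group, and the letters A, B and C stand for a code shared by the groups. Question marks stand in place of counts in 6255 rows, none protein-coding. Because they mix text with numbers in the count columns, the rules for this work did not admit those columns as counts, and the deposited counts were tested on a log scale instead of with a count model.

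Counts were scaled by trimmed mean of M values, written out in R 4.3.3, and log2(normalized count + 1) was fitted with limma 3.58.1 (trend, robust) over 4 group means and 12 libraries without a block. Each gene had 1 estimate of spread over all 12 libraries, so an SE within 1 stage also holds the spread in the other stage. The 17011 genes fitted had a mean of at least 10 over all libraries, and a gene was tested where the compared libraries also reached 10. Fold changes are on that log2 scale and understate changes of low genes. The fit was tested on simulated data. Counting intervals are 95% exact intervals and cover counting error only. Exon lengths came from GENCODE vM21, as the union of exons over all annotated transcripts of a gene. Which transcripts these cells use was not tested, so comparisons between genes per kilobase depend on the annotation. The 36 genes, the lists and the tests were chosen with earlier results of these data known. Named in full were the PIWI and AGO genes, genes called in a treatment comparison, the 5 largest rises and falls between stages, and genes not called between stages; Tdrkh, Stk31, Tdrd1, Tdrd9 and others near a threshold were added after their values were seen.

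Same-letter libraries of PD cells deviated from their group means together (correlations over genes of 0.357, 0.229 and 0.292), so the letter pairs them; in LZ cells the correlations were 0.048, 0.145 and 0.065, short of 0.1 in 2 of 3 pairs, and pairing was not assumed there, although 11 of 12 libraries correlated best with the library of their own letter within their stage.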

Additional observations from a re-analysis of the deposited data

How the results depend on the processing

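The counts of 18 higher and 13 lower genes between stages stayed within 1.5 times under all 14 alternatives run: total-count and median-of-ratios scaling, a pseudocount of 5, no filter and a minimum of 50, voom weights, the replicate block, a fit of only the compared libraries, and each library left out. Of the 31 genes called, 29 kept direction and call in all of them. Total-count scaling reversed Tdrd12 (-0.40, called lower), Stk31 (-0.42, called lower), Rnf17 (-0.037) and Gpat2 (-0.035), and shifts the median of all genes from 0.49 to -0.08.

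For octyl-L2HG, 1 gene was called higher with a minimum of 50 (Henmt1, adjusted p = 0.0488), and leaving out single libraries gave 0 to 1. Over all genes that minimum called 31 of 9073 higher. The fit without library A of untreated LZ cells, which also gave 1 gene, called 26 of 12860 higher. For oxamate, 4 genes were called higher with a pseudocount of 5 and 4 with the replicate block, and leaving out single libraries gave 2 to 4. Over all 15233 genes, 1120 were called higher with a pseudocount of 5 and 1230 with the block, against 934 in the fit used here. Ago1 and Ago4 kept their call in all 14 alternatives. For the difference of the treatment changes, 2 genes were called with total-count scaling, 2 with median-of-ratios scaling and 1 with the replicate block, and leaving out single libraries gave 0 to 4. Ago4 was called in 10 of 19 alternatives and Tdrkh in 9. The 4 came without library C of oxamate-treated PD cells, where 62 were higher and 354 lower of all 11244 genes. Without library C of octyl-L2HG-treated LZ cells 22 were higher and 13 lower of all 11255. Over all genes, total-count scaling called 127 higher and 261 lower of 11350, and median-of-ratios scaling 101 and 198 of 11277. The block called 130 higher and 214 lower of 11261, against 58 and 78 in the fit used here. The cause of these shifts was not tested. The replicate block changed no other call. Depth limits Piwil4 in all groups and Gtsf1l in LZ cells.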
